A study of Saccharomyces cerevisiae with 27 samples.

Results

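The 33 genes described here encode the yeast proteasome and its transcription factor. They are 32 proteasome subunit genes and RPN4 (YDL020C), chosen by name among the known subunits of the core particle and of the regulatory particle. The rule used no measured value, but earlier results of these data were known when the genes were chosen. SEM1, a small lid protein, is counted with the proteasome-associated proteins below. The deposited table lists 7122 genes, of which 6386 had enough counts to be tested, and all 33 genes were among those tested. The lowest count of any of the 33 in any library was 1124. The subunits comprise 7 genes of the core alpha ring (SCL1, PRE8, PRE9, PRE6, PUP2, PRE5 and PRE10) and 7 of the core beta ring (PRE3, PUP1, PUP3, PRE1, PRE2, PRE7 and PRE4). The regulatory particle adds 6 ATPases of the base (RPT1 to RPT6), 4 other base subunits (RPN1, RPN2, RPN10 and RPN13) and 8 lid subunits (RPN3, RPN5, RPN6, RPN7, RPN8, RPN9, RPN11 and RPN12).

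The study measured polyadenylated RNA in Saccharomyces cerevisiae cells with a mutated alanyl-tRNA synthetase (AlaRS, encoded by ALA1). C719A cells carried an AlaRS defective in editing, which is the removal of amino acids wrongly joined to the tRNA. G906D cells carried an AlaRS defective in aminoacylation, which is the joining itself, and WT cells carried the wild type enzyme. All strains derive from the haploid laboratory strain BY4741. By the paper's account each strain lacked chromosomal ALA1 and held its WT, C719A or G906D version on a single-copy plasmid. Both mutants were made by plasmid shuffling with pRS315, which is marked with LEU2. Which plasmid the WT cells of these libraries held is not stated, and LEU2 had 5101 to 12680 counts in the WT libraries. Cultures in YPD medium were kept at 30 °C and then moved to 37 °C, and RNA was taken before the shift (0 h) and after 1 and 2 h at 37 °C. The 9 groups of strain and time held 3 libraries each, described by the study as biological replicates and labelled A, B and C, which makes 27 libraries. The sources used here do not say how many isolates of each strain were made.

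The proteasome degrades proteins that carry ubiquitin chains. Its core particle is a barrel of stacked alpha and beta rings with the proteolytic sites inside, and its regulatory particle recognises, unfolds and feeds in the substrate. In yeast the transcription factor Rpn4 binds the proteasome-associated control element (PACE) before the subunit genes, and the proteasome itself rapidly degrades Rpn4, so that Rpn4 accumulates when the proteasome is overloaded. RPN4 transcription is in turn known to respond to the heat shock factor Hsf1 and to the stress factors Yap1, Pdr1 and Pdr3.

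The PACE element GGTGGCAAA was found, as an exact match on either strand, in 27 of the 33 windows reaching from 250 bases before to 50 bases after the coding start, or 81.8%. Among the windows of all 6007 protein-coding genes, 72 held it, or 1.2%. The windows were read from the RefSeq copy of the R64 genome build. Each match stood 84 to 183 bases before the start, with a median of 120 bases, on the strand of the gene in 19 cases and on the opposite strand in 8. All 6 ATPase genes, 6 of 7 alpha ring genes, 6 of 7 beta ring genes, 7 of 8 lid genes and 2 of 4 other base genes held the element. PRE5, PUP1, RPN8, RPN10, RPN13 and RPN4 itself held no such letters in this window. The stretches below belong to some of the 27 genes with the element. Other genes named in the results, such as PRE1, PRE6 and RPN7, hold it too, while RPN10 and PUP1 do not. The element is in capitals and written in the direction of the gene, and GGTGGCAAA on the opposite strand reads TTTGCCACC.
SCL1 (chrVII:475337-475365, minus strand): cacacaccaaTTTGCCACCgtaaggatag
PRE9 (chrVII:761223-761251, plus strand): ttaccctgcaGGTGGCAAAaaatttatag
PUP2 (chrVII:999226-999254, minus strand): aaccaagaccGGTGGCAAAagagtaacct
RPT6 (chrVII:411352-411380, minus strand): atgcgagcgaGGTGGCAAAagttgtaata
PRE2 (chrXVI:732184-732212, plus strand): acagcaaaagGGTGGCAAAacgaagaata
PRE3 (chrX:435035-435063, plus strand): aacggaatccGGTGGCAAAaaagggaaaa
RPT2 (chrIV:437906-437934, plus strand): gtttttctccGGTGGCAAAtgtctctttt
RPN1 (chrVIII:164838-164866, minus strand): tgtgttttacGGTGGCAAAaggcgagcac
RPN2 (chrIX:220801-220829, minus strand): atttattttcGGTGGCAAAactggataca
RPN5 (chrIV:190776-190804, plus strand): ttgacttttcGGTGGCAAAatgcaaaggg

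The libraries held 14471528 to 23057641 counts, with a median of 17523615. Per-library values below are normalized CPM (counts scaled to a common library total), scaled by the trimmed mean of M values (TMM), which sets the typical gene to no change between libraries. Changes are log2 fold changes with their standard errors from edgeR's quasi-likelihood test over all 27 libraries, and a gene is said to have risen or fallen where its p adjusted by Benjamini-Hochberg over the 6386 genes was under 0.05. The scaling matters here, because without TMM, with each library scaled only by its own total, the all-gene median shifted by -0.37 in G906D against WT at 0 h and by 0.28 to 0.53 in the first hour at 37 °C, against at most 0.04 in size with TMM. ALA1 was higher in C719A than in WT libraries by 0.95 at 0 h, 1.34 at 1 h and 1.43 at 2 h, and LEU2 by 2.30, 1.63 and 2.13. In G906D against WT the 528 tested genes of chromosome VII had median log2 fold changes of 0.91 at 0 h, 0.96 at 1 h and 0.94 at 2 h.

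Compared per length, the subunit mRNAs were abundant and lay close together. In WT libraries before the shift the authors' length-scaled FPKM values had a median of 213 over the 32 subunits, and ran from 114 FPKM for RPN9, a lid scaffold subunit, to 475 FPKM for PUP3, a beta ring subunit without a proteolytic site. At 2 h the medians were 203 FPKM in C719A, 270 FPKM in G906D and 220 FPKM in WT libraries, and the median of all genes tested lay between 36.2 and 60.6 FPKM in every group. The ratio of the highest to the lowest subunit narrowed with time in C719A cells, with 4.43 at 0 h, 3.46 at 1 h and 3.17 at 2 h. It was 8.94, 4.44 and 5.68 in G906D cells, where PRE9 had the highest level at every time, and 4.18, 2.99 and 2.85 in WT cells.

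**Figure D1:**
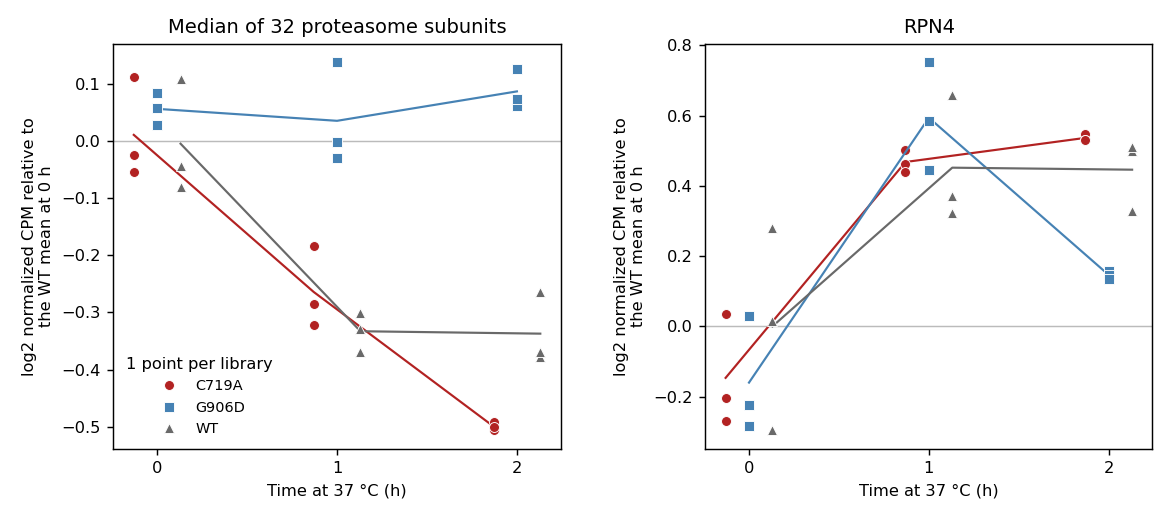
Log2 normalized CPM relative to the WT mean at 0 h, as the median of the 32 subunits in each library on the left and for RPN4 on the right, against hours at 37 °C, with 1 point per library and lines through the means of C719A, G906D and WT libraries. At 2 h the subunit median lies between -0.51 and -0.49 in C719A, between 0.06 and 0.13 in G906D and between -0.38 and -0.26 in WT libraries, whereas RPN4 is lowest in the G906D libraries.

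As a sum, the 32 subunit mRNAs were lowest in C719A and highest in G906D libraries after 2 h of heat. Their summed level was 6023 to 6143 CPM in the C719A libraries and 9368 to 9530 CPM in the G906D libraries, against 6492 to 6976 CPM in the WT libraries. None of these ranges overlapped. The sums include the 4 subunits on chromosome VII. At 2 h PRE9 averaged 553 CPM in G906D and 180 CPM in WT libraries, and PUP2 487 and 159 CPM. SCL1 averaged 463 and 161 CPM, and RPT6 586 and 249 CPM. At 0 h the same pairs were 890 and 374, 547 and 218, 605 and 245, and 742 and 371 CPM. The 28 other subunits had a median log2 fold change in G906D against WT of 0.33 at 2 h and 0.01 at 0 h. As a share of all counts, which scales each library only by its own total, the 32 subunits took 0.678% to 0.684% in C719A libraries. They took 0.961% to 0.968% in G906D and 0.747% to 0.770% in WT libraries. Before the shift the summed levels were 7841 to 8789 CPM in C719A and 9780 to 10144 CPM in G906D libraries, against 8075 to 9422 CPM in WT libraries, so that the C719A and WT ranges overlapped. As a share of all counts they took 0.703% to 0.760% in C719A and 0.704% to 0.750% in G906D libraries, against 0.724% to 0.898% in WT libraries, so that all 3 ranges overlapped and G906D was not above WT before the shift on this scale.

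Before the shift, C719A cells differed from WT cells in 9 of the 33 genes. PRE6 (alpha ring), PUP1 (the beta subunit with the trypsin-like site), RPN10 (a ubiquitin receptor) and PRE7 (beta ring) were higher, which is 4 genes against 27% of all genes tested that were higher. RPN1, RPN2, RPN3, RPN7 and PRE2 were lower, which is 5 genes against 26.7% of all genes that were lower. The median over the 33 genes was 0.01. RPN1, the base scaffold that docks ubiquitin shuttle proteins, had 353, 355 and 347 CPM in C719A libraries, against 533, 528 and 655 CPM in WT libraries, a log2 fold change of -0.70 ± 0.11 (edgeR adjusted p = 8.1e-06). The groups did not overlap for RPN1, and 26.2% of all genes tested were likewise lower in every C719A library than in every WT library. RPN2, the other large base scaffold, changed by -0.44 ± 0.09 (edgeR adjusted p = 0.000423), again without overlap, and by -0.28 without WT replicate C. PRE6 had 217, 194 and 197 CPM in C719A libraries, against 127, 179 and 159 CPM in WT libraries, a change of 0.39 ± 0.11 (edgeR adjusted p = 0.0034). PUP1 changed by 0.35 ± 0.06 and RPN10 by 0.33 ± 0.07. For both every C719A library was above every WT library, as for 26.9% of all genes tested.

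PRE2 (YPR103W), which carries the chymotrypsin-like site, was uneven in WT cells before the shift. It had 253, 222 and 207 CPM in C719A libraries, against 384, 248 and 432 CPM in WT libraries, with a change of -0.64 ± 0.12 (edgeR adjusted p = 9.88e-05). WT replicate B overlapped the C719A range, whereas WT replicates A and C lay far above it. Without WT replicate C at 0 h the change was -0.48, and without WT replicate B it was -0.84. PRE3, the subunit with the caspase-like site, changed by -0.06 ± 0.09 and did not pass the test (edgeR adjusted p = 0.566).

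G906D cells before the shift differed from WT cells in 18 of the 33 genes. The 11 genes that were higher stand against 30.9% of all genes tested, and the 7 that were lower stand against 33.2%. Scaled by library size alone, 4 were higher and 21 lower. In the alpha ring 6 of 7 were higher with a median of 0.46, and these 6 include PUP2, PRE9 and SCL1 of chromosome VII. The 4 subunits encoded on chromosome VII stood apart from the other subunits. PUP2, an alpha subunit, had 567, 539 and 534 CPM in G906D libraries, against 199.6, 214 and 239.7 CPM in WT libraries, a change of 1.33 ± 0.09 (edgeR adjusted p = 9.98e-12). PRE9 (YGR135W), the alpha subunit that yeast can live without, had 908, 873 and 888 CPM in G906D libraries, against 355, 358 and 407 CPM in WT libraries, a change of 1.25 ± 0.10. The alpha subunit SCL1 changed by 1.31 ± 0.09 and the ATPase RPT6 by 1.00 ± 0.08. For all 4 genes the G906D libraries lay above every WT library, as for 31.8% of all genes tested. Of the 528 tested genes of chromosome VII, 446 were higher.

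The 28 subunits on other chromosomes had a median of 0.01 in G906D against WT at 0 h, with 7 higher and 7 lower. PRE6 (0.46 ± 0.11) and PRE8 (0.39 ± 0.08), both of the alpha ring, were the highest of them. RPN2 (-0.50 ± 0.09), RPN1 (-0.41 ± 0.11) and PRE2 (-0.36 ± 0.12) fell the most. RPN2 had 401, 392 and 406 CPM in G906D libraries, against 506, 509 and 681 CPM in WT libraries, and did not overlap (edgeR adjusted p = 7.25e-05). Every G906D library was likewise below every WT library for 31.1% of all genes tested. The call on PRE2 was lost without WT replicate A at 0 h (edgeR adjusted p = 0.0511) and without WT replicate C (edgeR adjusted p = 0.152). PRE3 changed by 0.09 ± 0.09 and did not pass the test, and PUP1 changed by 0.26 ± 0.06 (edgeR adjusted p = 0.0012), but by -0.08 with library size alone. The higher level of chromosome VII genes moved with the values of SCL1, RPT6, PRE9 and PUP2, and its part in the sums over all subunits was not tested beyond this split by chromosome.

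**Figure D2:**
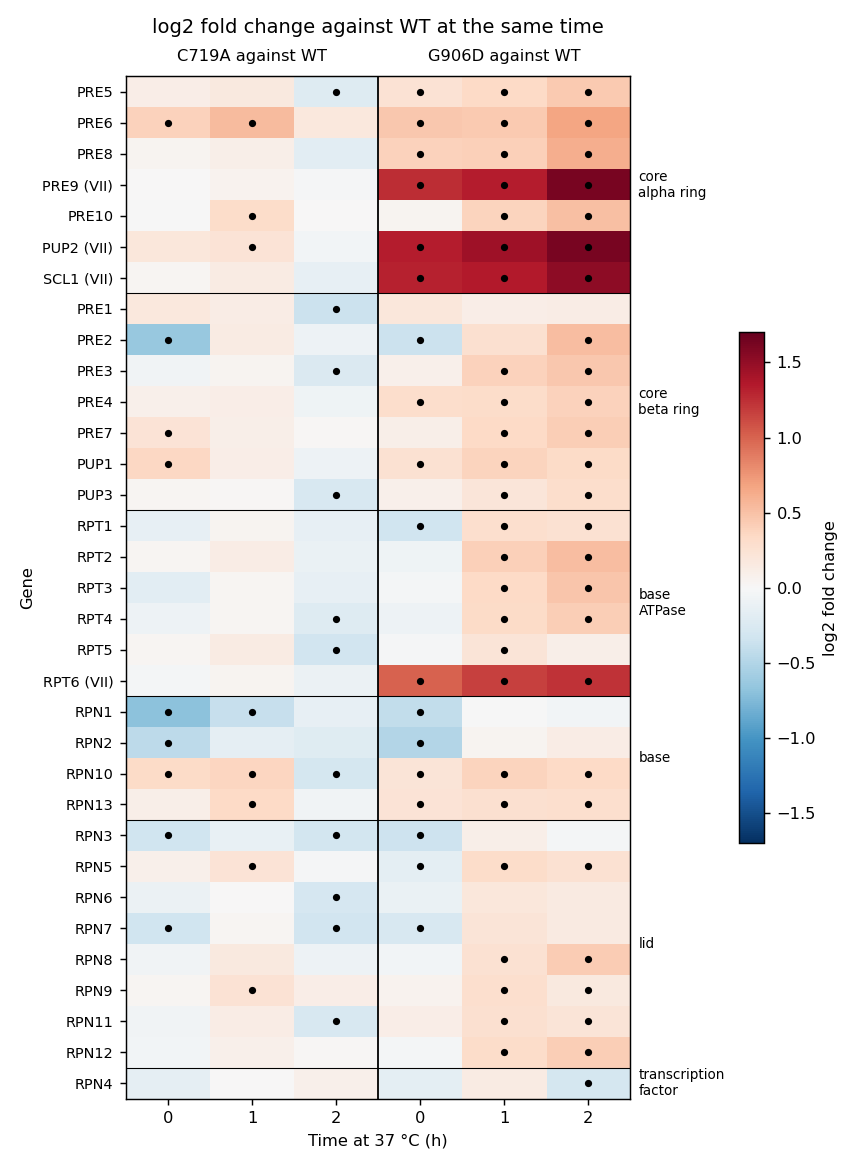
Log2 fold change of each of the 33 genes (down the page, grouped by subcomplex, VII marking chromosome VII) in C719A against WT and in G906D against WT at 0, 1 and 2 h at 37 °C, on a colour scale centred on 0, with a dot where the gene passed the test. The 4 subunits on chromosome VII are the strongest in each G906D column, and at 2 h the C719A column is mostly negative (median -0.14) and the G906D column mostly positive (median 0.39).

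After 1 h at 37 °C, C719A cells were above WT cells in 7 of the 33 genes, against 17.3% of all genes tested, and below in 1, against 18.4%. PRE6 (0.54 ± 0.11), RPN10 (0.37 ± 0.07) and RPN13 (0.34 ± 0.07), another ubiquitin receptor, had the largest increases. RPN10 had 188, 213 and 197 CPM in C719A libraries, against 144, 160.3 and 158 CPM in WT libraries, without overlap (edgeR adjusted p = 0.000346). Every C719A library was likewise above every WT library for 23.8% of all genes tested. RPN1 was the gene that was lower (-0.39 ± 0.11, edgeR adjusted p = 0.0062). Without WT replicate A at 1 h, 5 genes were called and RPN1 was not among them (edgeR adjusted p = 0.0558). The 3 genes of the proteolytic sites did not pass the test, with PRE2 at 0.14 ± 0.12, PRE3 at 0.05 ± 0.09 and PUP1 at 0.11 ± 0.06.

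G906D cells after 1 h were above WT cells in 25 of the 33 genes, against 16.3% of all genes tested, and below in 0, against 15%. The median was 0.31. All 7 alpha ring genes and all 6 ATPases rose relative to WT, as did 5 of 7 beta ring genes, 5 of 8 lid genes and 2 of 4 other base genes. The subunits on chromosome VII again had the largest differences, with 1.44 ± 0.09 for PUP2, 1.35 ± 0.09 for SCL1, 1.33 ± 0.10 for PRE9 and 1.16 ± 0.08 for RPT6. Among the 28 on other chromosomes, 21 were higher with a median of 0.30. PRE3 had 289, 244 and 249 CPM in G906D libraries, against 188, 207 and 200.0 CPM in WT libraries, a change of 0.39 ± 0.09 (edgeR adjusted p = 0.000956). PUP1 changed by 0.37 ± 0.06, while PRE2, at 0.27 ± 0.12, did not pass the test (edgeR adjusted p = 0.0846). With library size alone, 15 of the 33 genes were higher and 0 lower.

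After 2 h at 37 °C, C719A cells were below WT cells in 11 of the 33 genes and above in 0, against 28.9% of all genes tested that were lower and 27.5% that were higher. The median over the 33 genes was -0.14, beside -0.03 over all genes. The count of lower genes was near the share over all genes. By subcomplex they were 1 of 7 in the alpha ring, 3 of 7 in the beta ring, 2 of 6 ATPases, 1 of 4 other base subunits and 4 of 8 lid subunits. PRE1, a beta ring subunit, had 77.0, 77.7 and 69.0 CPM in C719A libraries, against 112, 88.7 and 88.3 CPM in WT libraries, a change of -0.37 ± 0.10 (edgeR adjusted p = 0.00278). Every C719A library was below every WT library for PRE1, as for 36.8% of all genes tested. The lid subunit RPN7 had 149, 139 and 142 CPM in C719A libraries, against 193, 174 and 172 CPM in WT libraries, a change of -0.33 ± 0.08 (edgeR adjusted p = 0.00162). The ATPase RPT5 had 191, 192 and 170.3 CPM in C719A libraries, against 255, 213 and 225 CPM in WT libraries, a change of -0.33 ± 0.09 (edgeR adjusted p = 0.00218). Neither gene overlapped between the strains, and leaving out each library in turn left 8 to 11 genes called.

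RPN10 was on the other side of WT at 2 h than earlier. It was above WT at 0 and 1 h, and at 2 h it had 143, 144 and 149 CPM in C719A libraries, against 191, 172 and 173 CPM in WT libraries, a change of -0.30 ± 0.07 (edgeR adjusted p = 0.00126). Of the proteolytic subunits, PRE3 was lower (-0.24 ± 0.09), with 164, 155 and 169 CPM in C719A libraries, against 200.0, 181 and 195 CPM in WT libraries. That call was lost without WT replicate A (edgeR adjusted p = 0.0759), WT replicate C (0.0534) or C719A replicate B (0.0851) at 2 h. PUP1, at -0.08 ± 0.06, and PRE2, at -0.08 ± 0.12, did not pass the test.

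G906D cells after 2 h were above WT cells in 25 of the 33 genes, against 31.9% of all genes tested. RPN4 alone was below, against 33.2% of all genes. The median was 0.39. By subcomplex the medians were 0.66 in the alpha ring, 0.39 in the beta ring, 0.44 in the ATPases, 0.21 in the other base subunits and 0.19 in the lid. The alpha ring includes PUP2, PRE9 and SCL1 of chromosome VII, and the ATPases include RPT6. PUP2 had 467, 478 and 516 CPM in G906D libraries, against 163, 160.4 and 152 CPM in WT libraries, a change of 1.62 ± 0.09 (edgeR adjusted p = 3.36e-13). PRE9 had 541, 553 and 567 CPM in G906D libraries, against 182, 183 and 176 CPM in WT libraries, a change of 1.62 ± 0.10. SCL1 changed by 1.52 ± 0.09 and RPT6 by 1.23 ± 0.08. All 4 genes on chromosome VII were above WT without overlap, as were 35.6% of all genes tested. Of the 528 tested genes of chromosome VII, 449 were higher. The 28 other subunits held 21 higher and 0 lower with a median of 0.33.

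The 3 proteolytic subunits, none of which lies on chromosome VII, were all higher in G906D cells at 2 h. PRE2 had 212, 208 and 237 CPM in G906D libraries, against 152, 149 and 154 CPM in WT libraries, a change of 0.53 ± 0.12 (edgeR adjusted p = 0.000461). PRE3 had 273, 259.8 and 259.6 CPM in G906D libraries, against 200.0, 181 and 195 CPM in WT libraries, a change of 0.46 ± 0.09 (edgeR adjusted p = 5.76e-05). PUP1 had 218, 214 and 212 CPM in G906D libraries, against 173, 173 and 168 CPM in WT libraries, a change of 0.33 ± 0.06 (edgeR adjusted p = 9.63e-05). For each of the 3 genes the G906D libraries lay above every WT library, as for 35.6% of all genes tested. RPN1, RPN2, RPN3, RPN6, RPN7, PRE1 and RPT5 did not pass the test in this comparison.

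**Figure D3:**
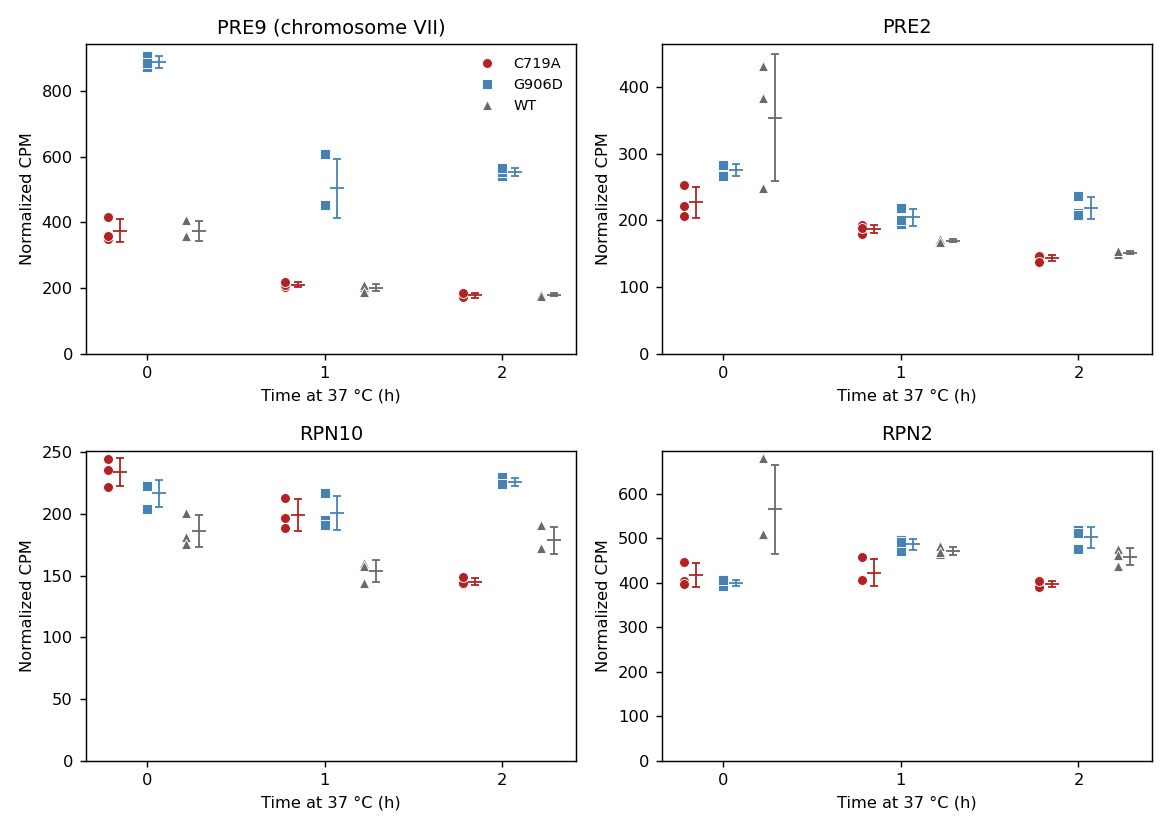
Normalized CPM of PRE9, PRE2, RPN10 and RPN2 against hours at 37 °C, with 1 point per library, C719A and G906D to the left of WT at each time, and bars for the group mean and SD of 3 libraries. PRE9 is highest in G906D at every time (873 to 908 CPM at 0 h), the WT libraries of PRE2 at 0 h are widely spread (248 to 432 CPM), and RPN10 in C719A is below WT at 2 h (143 to 149 CPM).

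The mutants were also set against each other, with C719A and G906D libraries that share no sample. At 0 h, C719A cells were below G906D cells in 7 genes, against 20.2% of all genes tested, and above in 1, against 21.6%. With library size alone the split was 20 higher and 4 lower. The 4 genes on chromosome VII differed the most, with -1.27 ± 0.09 for SCL1, -1.24 ± 0.10 for PRE9, -1.14 ± 0.09 for PUP2 and -1.03 ± 0.08 for RPT6. RPN5, a lid scaffold subunit, was higher in C719A cells by 0.25 ± 0.07 (edgeR adjusted p = 0.00658), with 304, 304 and 296 CPM in C719A libraries, against 252, 252 and 258 CPM in G906D libraries. At 1 h, 16 genes were lower in C719A cells, against 19.4% of all genes, and 0 were higher, against 17.9%. PRE9 (-1.26 ± 0.10), SCL1 (-1.20 ± 0.09), PUP2 (-1.20 ± 0.09) and RPT6 (-1.11 ± 0.08) again differed the most, and PRE3 differed by -0.35 ± 0.09 (edgeR adjusted p = 0.00236).

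At 2 h, 30 of the 33 genes were lower in C719A than in G906D cells, against 20.9% of all genes tested, and RPN4 alone was higher, against 18.6%. The median was -0.50 over the 33 genes, and 26 of the 28 subunits on other chromosomes were lower with a median of -0.48. PUP2 (-1.67 ± 0.09), SCL1 (-1.66 ± 0.09) and PRE9 (-1.64 ± 0.10) had the largest differences, and RPT6 differed by -1.33 ± 0.09. Of the proteolytic subunits, PRE3 differed by -0.70 ± 0.09 (edgeR adjusted p = 3.78e-07), PRE2 by -0.61 ± 0.12 and PUP1 by -0.41 ± 0.06. RPN1, at -0.10 ± 0.11, and RPN9, at -0.06 ± 0.06, did not pass the test. Leaving out each library in turn left 31 genes called in each case.

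In the first hour at 37 °C more of the 33 genes fell than rose in each strain with TMM scaling. In C719A cells 18 of the 33 genes fell, against 32% of all genes tested, and 3 rose, against 33.9%. In G906D cells 13 fell, against 33.8% of all genes, and 7 rose, against 37.6%. In WT cells 23 fell, against 30.2%, and RPN4 alone rose, against 30.8%. These splits depend on the scaling, since library size alone gave 11 risen and 6 fallen in C719A, 23 risen and 1 fallen in G906D, and 6 risen and 11 fallen in WT cells. Set against the median of all genes under that scaling, the members' median was -0.24 in C719A, -0.07 in G906D and -0.33 in WT cells. With TMM the members' medians themselves were -0.23, -0.02 and -0.33, beside all-gene medians of 0.02, 0.04 and -0.0006.

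By subcomplex and with TMM scaling, most falls of the first hour lay in the rings and the base. In C719A cells 6 of 7 alpha ring genes, 6 of 7 beta ring genes, 4 of 6 ATPases and 2 of 4 other base genes fell, while 2 of 8 lid genes rose and 0 fell. In G906D cells 7 alpha ring genes, 3 beta ring genes, 1 ATPase, 1 other base gene and 1 lid gene fell, while 4 lid genes, 1 ATPase and 1 other base gene rose. In WT cells 7 alpha ring genes, 5 beta ring genes, 5 ATPases, 4 other base genes and 2 lid genes fell. The medians of the lid were 0.08 in C719A, 0.19 in G906D and -0.13 in WT cells, and those of the alpha ring were -0.41, -0.38 and -0.51.

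PRE9 fell in the first hour in all 3 strains, with changes of -0.84 ± 0.10 in C719A, -0.82 ± 0.10 in G906D and -0.90 ± 0.10 in WT cells. PRE2 fell the most of any of the 33 genes in WT cells, with 169, 172 and 167 CPM at 1 h, against 384, 248 and 432 CPM at 0 h, a change of -1.07 ± 0.12 (edgeR adjusted p = 7.6e-08). It changed by -0.28 ± 0.12 in C719A (edgeR adjusted p = 0.0426) and -0.43 ± 0.12 in G906D cells (0.06 with library size alone), and the C719A call was lost when any of 5 of the 6 libraries was left out, all but C719A replicate C at 0 h. PRE10, an alpha subunit, had the third largest fall in WT cells, after PRE2 and PRE9 (-0.65 ± 0.08). PRE1 changed by -0.57 ± 0.10 in C719A and -0.60 ± 0.10 in G906D cells. Next to it were PUP3 in C719A (-0.56 ± 0.08) and SCL1 in G906D cells (-0.55 ± 0.09). The G906D calls on PRE1 (-0.11, edgeR adjusted p = 0.311) and SCL1 (-0.05, edgeR adjusted p = 0.569) were lost with library size alone. PRE3 changed by -0.23 ± 0.09 in C719A, -0.02 ± 0.09 in G906D and -0.33 ± 0.09 in WT cells, and PUP1 by -0.30 ± 0.06, 0.05 ± 0.06 and -0.07 ± 0.06. The C719A call on PRE3 was lost without C719A replicate A at 0 h (edgeR adjusted p = 0.221) and without C719A replicates A or C at 1 h. With library size alone, the C719A calls on PRE2 (-0.01), PRE3 (0.04) and PUP1 (-0.03) and the WT call on PRE3 (-0.05) were lost too.

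With TMM scaling, the genes that rose in the first hour belonged to the lid, or were RPN4, with RPT1 and RPN2 added in G906D cells. RPN5 had 362, 353 and 351 CPM at 1 h in G906D libraries, against 252, 252 and 258 CPM at 0 h, a change of 0.49 ± 0.07 (edgeR adjusted p = 1.43e-06) without overlap. Among all genes tested, 38% were likewise higher at 1 h without overlap in G906D cells. RPN12, a small lid subunit, changed by 0.35 ± 0.07 in the same cells. In C719A cells RPN9 changed by 0.20 ± 0.06 and RPN5 by 0.17 ± 0.07 (edgeR adjusted p = 0.0412). The RPN5 call in C719A cells was lost when any of 5 of the 6 libraries was left out, all but C719A replicate A at 1 h.

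**Figure D4:**
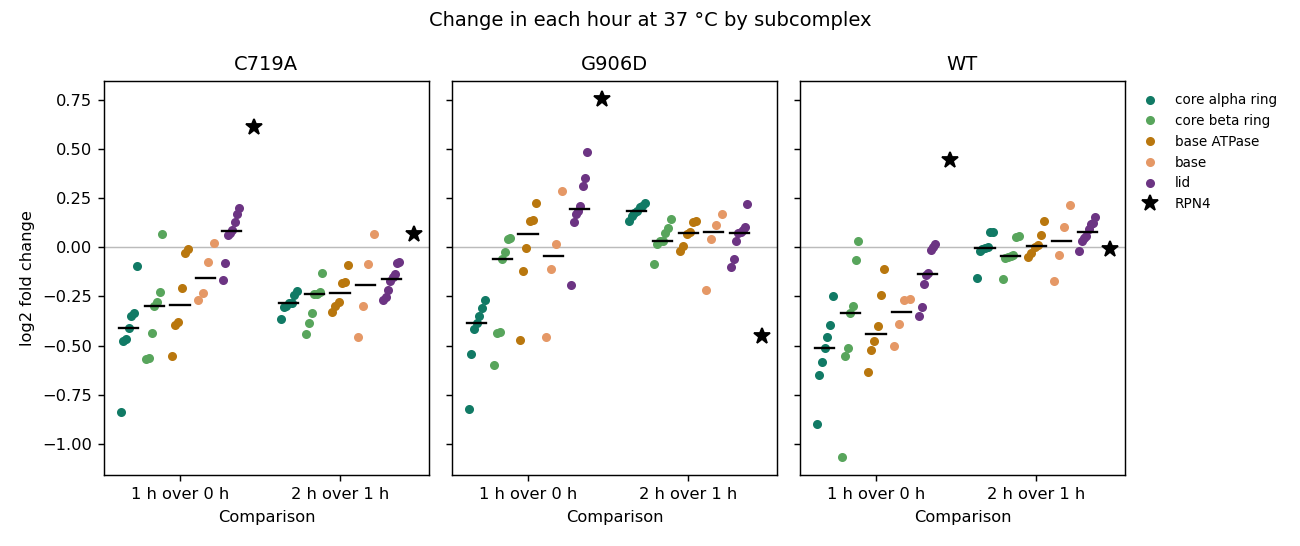
Log2 fold change of each gene in the first hour (1 h over 0 h) and the second hour (2 h over 1 h) at 37 °C in C719A, G906D and WT cells, with 1 point per gene coloured by subcomplex, a bar at each subcomplex median and a star for RPN4. In the second hour the C719A medians lie between -0.29 and -0.16 in all 5 subcomplexes, and the G906D medians between 0.03 and 0.18.

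The second hour lowered proteasome mRNAs in C719A cells. In C719A cells 18 of the 33 genes fell between 1 h and 2 h, against 7.5% of all genes tested, and 0 rose, against 7.74%. In G906D cells 0 rose, against 7.83%, and RPN4 alone fell, against 8.3%. In WT cells RPN10 alone rose, against 10.4%, and 0 fell, against 13.6%. The members' medians were -0.24 in C719A, 0.08 in G906D and -0.00 in WT cells. The falls in C719A cells took 5 of 7 alpha ring genes, 6 of 7 beta ring genes, 3 of 6 ATPases, 2 of 4 other base genes and 2 of 8 lid genes. Whether the second hour itself differed between strains was not tested. The count in C719A cells was 4 without C719A replicate B at 1 h, 6 without replicate B at 2 h, 8 without replicate C at 2 h and 8 with library size alone, and all genes called under each of these fell.

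RPN10 fell the most in the second hour of C719A cells, with 143, 144 and 149 CPM at 2 h, against 188, 213 and 197 CPM at 1 h, a change of -0.46 ± 0.07 (edgeR adjusted p = 0.00025). PRE1 had 77.0, 77.7 and 69.0 CPM at 2 h, against 92.9, 111 and 99.5 CPM at 1 h, a change of -0.44 ± 0.10 (edgeR adjusted p = 0.00419). All 3 proteolytic subunits fell, with changes of -0.39 ± 0.12 for PRE2, -0.34 ± 0.09 for PRE3 and -0.24 ± 0.06 for PUP1. The PRE2 call was lost when any of 5 of the 6 libraries was left out, all but C719A replicate A at 1 h, and the calls on PRE3 and PUP1 were lost without C719A replicate B at 1 h or at 2 h. RPN10 in WT cells went the other way by 0.21 ± 0.07 (edgeR adjusted p = 0.0362), and that call was lost without WT replicate A at 1 h, WT replicate B at 1 h or WT replicate A at 2 h. In G906D cells the count was 11, with 9 risen and 2 fallen, without G906D replicate A at 1 h, and 0 without G906D replicates B or C at 1 h or at 2 h.

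The change in heat was then compared between strains by the difference of the differences. For the change by 1 h, 3 genes responded more upward in C719A than in WT cells, against 15.3% of all genes tested, and 0 more downward, against 16.2%. RLE scaling, library size alone and TMM without chromosome VII genes each gave 3 and 1. Without WT replicate B at 0 h, 8 genes passed, and without WT replicate C at 0 h, 1 passed. For G906D against WT the counts were 13, against 15.6%, and 0, against 13.8%. For the change by 2 h, 2 genes responded more upward and 6 more downward in C719A than in WT cells, against 18.6% and 18.2% of all genes. For G906D against WT, 14 were more upward, against 12.7%, and 0 more downward, against 10.6%. With library size alone, the upward counts in G906D cells were 27 by 1 h and 31 by 2 h, and with the groups compared alone 3 passed by 1 h. Compared alone, the C719A counts were 1 by 1 h and 5 by 2 h. The upward group in G906D cells at 2 h held 5 of 8 lid genes, 4 of 6 ATPases, 3 of 7 beta ring genes, 1 alpha ring gene and 1 other base gene.

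PRE2 was among the largest of these differences in both mutants, at 0.79 ± 0.17 in C719A and 0.64 ± 0.17 in G906D by 1 h, and 0.56 ± 0.17 in C719A and 0.89 ± 0.17 in G906D by 2 h (edgeR adjusted p = 0.00142, 0.00844, 0.0125 and 0.000538). The G906D call by 1 h was lost with the groups compared alone (edgeR adjusted p = 0.0772). All 4 use the same WT libraries at 0 h, of which replicates A and C had high PRE2, and without WT replicate C at 0 h the C719A value by 2 h was 0.39 (edgeR adjusted p = 0.0545). RPN10 had the largest downward difference in C719A by 2 h, -0.63 ± 0.10 (edgeR adjusted p = 5.28e-05). PRE1 (-0.55 ± 0.14) and PUP1 (-0.43 ± 0.09) followed, and RPN1 was upward by 0.56 ± 0.15. In G906D cells RPN2 was upward by 0.55 ± 0.13 by 1 h and 0.63 ± 0.13 by 2 h, RPT1 by 0.63 ± 0.12 by 1 h and RPT2 by 0.60 ± 0.10 by 2 h. The RPN2 call by 1 h was lost with the groups compared alone (edgeR adjusted p = 0.0709). RPN2 had 475, 519 and 511 CPM at 2 h in G906D libraries, against 401, 392 and 406 CPM at 0 h, while WT libraries had 475, 438 and 462 CPM at 2 h, against 506, 509 and 681 CPM at 0 h. Every G906D library of RPN2 was higher at 2 h than at 0 h, and every WT library was lower.

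RPN4, which encodes the short-lived activator, followed a course of its own. Before the shift it had 312, 386 and 327 CPM in C719A libraries and 322, 309 and 384 CPM in G906D libraries, against 307, 457 and 381 CPM in WT libraries. The 3 strains overlapped, and neither -0.16 ± 0.12 for C719A nor -0.17 ± 0.12 for G906D against WT passed the test. Both would have passed without WT replicate A at 0 h, at edgeR adjusted p = 0.0479 for C719A and 0.0312 for G906D. In the first hour RPN4 rose in all 3 strains, by 0.61 ± 0.12 in C719A, 0.75 ± 0.12 in G906D and 0.44 ± 0.12 in WT cells (edgeR adjusted p = 0.00014, 7.41e-06 and 0.00338). The call in WT cells was lost when the 2 groups were fitted alone (edgeR adjusted p = 0.0592). At 1 h neither mutant differed from WT by the test, with 0.01 ± 0.12 for C719A and 0.14 ± 0.12 for G906D, and C719A differed from G906D by -0.13 ± 0.12, which also did not pass.

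At 2 h RPN4 had 551, 544 and 544 CPM in C719A libraries and 419.8, 417 and 413 CPM in G906D libraries, against 473, 532 and 536 CPM in WT libraries. The G906D libraries lay below all others at that time. Every G906D library was likewise below every WT library for 37.3% of all genes tested, and below every C719A library for 31.1%. Between 1 h and 2 h RPN4 fell in G906D cells (-0.45 ± 0.12, edgeR adjusted p = 0.0162), and changed by 0.07 ± 0.12 in C719A and -0.01 ± 0.12 in WT cells, neither past the test. Against WT at 2 h it differed by -0.30 ± 0.12 in G906D (edgeR adjusted p = 0.0347) and 0.09 ± 0.12 in C719A cells, and C719A differed from G906D by 0.39 ± 0.12 (edgeR adjusted p = 0.0137). The call against WT in G906D cells was lost without WT replicate B or C or any 1 of the 3 G906D libraries at 2 h, and with RLE scaling (edgeR adjusted p = 0.0622) or TMM without chromosome VII genes (0.0994). The fall in the second hour was lost without G906D replicates B or C at 1 h or at 2 h. The call of C719A against G906D held in all 6 cases, with edgeR adjusted p between 0.0326 and 0.0426. The responses of RPN4 to heat did not pass the test against WT, at 0.17 ± 0.17 and 0.25 ± 0.17 by 1 h and 2 h in C719A and 0.31 ± 0.17 and -0.13 ± 0.17 in G906D cells. The G906D response by 1 h did pass with library size alone (0.52, edgeR adjusted p = 0.0282) and without WT replicate A at 0 h (0.45, edgeR adjusted p = 0.0396).

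Subunits with the PACE element before their start were counted apart from those without it. In G906D against WT at 2 h, 20 of 27 subunits with the element and 5 of 5 without it were higher, with medians of 0.41 and 0.34, against 31.9% of all genes tested. In C719A against WT at 2 h, 9 of 27 with it and 2 of 5 without it were lower, with medians of -0.14 and -0.09, against 28.9% of all genes. In the first hour of WT cells, 20 of 27 with it and 3 of 5 without it fell, against 30.2% of all genes. With 5 genes in the group without the element, these counts are a description and carry no test.

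The genes that build, load and regulate the proteasome were taken from 4 lists. Of the 9 assembly chaperones, 3 were higher and 4 lower in C719A and 5 higher and 2 lower in G906D against WT at 2 h. Of all genes tested, 27.5% were higher and 28.9% lower in C719A, and 31.9% higher and 33.2% lower in G906D. UMP1, which matures the core particle, was higher in C719A by 0.51, 0.49 and 0.24 and in G906D by 0.43, 0.61 and 0.82 at 0, 1 and 2 h. NAS6 and RPN14, which help the base to assemble and lie on chromosome VII, were higher in G906D by 1.48 and 0.77 at 0 h, and HSM3, another base chaperone, was lower by 0.89 (log2 fold change -0.89) at 2 h. NAS2, also a base chaperone, rose in the first hour by 0.97 in C719A, 0.92 in G906D and 0.68 in WT cells. Of the 8 proteasome-associated proteins, 0 were higher and 2 lower in C719A and 3 higher and 3 lower in G906D at 2 h, beside the same shares of all genes. SEM1, a small lid protein, was higher in G906D by 0.73, 0.58 and 0.89 at 0, 1 and 2 h, and SPG5, which acts on the proteasome in stationary phase, rose in the first hour by 1.21 in C719A, 2.12 in G906D and 1.60 in WT cells.

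Of the 17 genes of ubiquitin and substrate delivery, 4 were higher and 9 lower in C719A and 4 higher and 11 lower in G906D against WT at 0 h. Of all genes tested, 27% were higher and 26.7% lower in C719A, and 30.9% higher and 33.2% lower in G906D. UBA1, the ubiquitin-activating enzyme, had 293, 314 and 279 CPM in C719A libraries and 272, 281 and 277 CPM in G906D libraries, against 428, 444 and 605 CPM in WT libraries, and was lower without overlap in both (log2 fold changes -0.74 and -0.83). Lower without overlap were also 26.2% of all genes tested in C719A and 31.1% in G906D. UBC4, a ubiquitin-conjugating enzyme, fell in the first hour by 0.95 in C719A, 1.29 in G906D and 0.89 in WT cells, and was higher in G906D than in WT cells at 2 h by 1.00. UBI4, the polyubiquitin gene that serves under stress, rose in the first hour by 0.74 in C719A, 1.13 in G906D and 0.42 in WT cells, and its WT libraries at 1 h overlapped those at 0 h. Of the 9 regulators tied to RPN4, 6 rose and 0 fell in the first hour in C719A, 7 rose and 1 fell in G906D, and 4 rose and 0 fell in WT cells. Of all genes tested, 33.9% rose and 32% fell in C719A, 37.6% rose and 33.8% fell in G906D, and 30.8% rose and 30.2% fell in WT cells. PDR1, which activates RPN4 and lies on chromosome VII, rose by 0.55 in C719A, 1.34 in G906D and 0.52 in WT cells. UBR2, the ubiquitin ligase that targets Rpn4, was lower than in WT at 0 h in C719A (-0.76) and in G906D cells (-0.77). RAD6, the conjugating enzyme that works with it, lies on chromosome VII and was higher in G906D by 1.37, 1.26 and 1.35 at 0, 1 and 2 h.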

How the data were processed

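RNA of 27 libraries was sequenced by Novogene from oligo(dT)-enriched mRNA. The deposited counts are raw whole reads per gene, and the deposited FPKM values are the authors' counts divided by gene length and library total. TopHat2 and Bowtie2 are named, without versions, in the submitters' processing notes. The genome build, annotation, counter and strand setting are not given in the sources used here, so reads of overlapping antisense genes cannot be told apart. In each file 4 lines were empty and were not used.

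Groups were taken from the sample labels. Counts were kept by filterByExpr over the 9 groups (6386 genes), scaled by TMM and tested with edgeR 4.0.16 (limma 3.58.1, R 4.3.3), glmQLFit and glmQLFTest, with 1 mean per group and all 27 libraries sharing the spread (common dispersion 0.0125). The 19 comparisons were adjusted by Benjamini-Hochberg over all genes at 0.05. An exact permutation test of 3 against 3 libraries cannot give a p below 0.1, so none was used. Alternatives were RLE scaling, library size alone, TMM without chromosome VII genes, at least 10 counts in every library, no filter beyond 1 count, DESeq2 1.42.0, the replicate letter as a block, the groups compared alone, and each library left out. The fit was tested on simulated data made from the real means. PACE matches were searched in the R64 genome with Python 3.11.15.

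The 33 genes and the 4 lists were chosen with earlier results of these data known. Genes named are RPN4, in each comparison up to 3 members with the largest rise and up to 3 with the largest fall past the threshold, the 4 subunits on chromosome VII in comparisons with G906D, the 3 proteolytic subunits, up to 3 genes of each list, and the members with the highest and lowest level per length. Others named, such as PRE8, RPN12, RPN5 and RPN3, were added after their values were seen. Libraries with the same letter were taken as paired where all 3 pairs of a comparison deviated together with r over 0.1. This held only for the first hour of WT cells (r of 0.23, 0.16 and 0.32). Pairs of different letters within a strain also passed 0.1 in 17 of 54 cases, so the rule cannot show pairing. Intervals given as ± are standard errors from the fit, in which all 27 libraries share the spread of a gene. They do not measure the spread within the groups compared. PRE2 had a WT SD of 95.0 CPM at 0 h (mean 355 CPM) and 2.43 CPM at 1 h (mean 169 CPM), with similar standard errors against WT.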

Additional observations from a re-analysis of the deposited data

Results flagged for a closer look

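The following genes passed the test of a different response to heat in a mutant than in WT cells, by edgeR's quasi-likelihood test of the difference of the differences with Benjamini-Hochberg adjustment. By 1 h the C719A response exceeded that of WT for PRE2 by 0.79 ± 0.17 (edgeR adjusted p = 0.00142), for RPN7 by 0.37 ± 0.12 (edgeR adjusted p = 0.0188) and for PRE10 by 0.31 ± 0.11 (edgeR adjusted p = 0.035). The call on RPN7 was lost without WT replicate C or C719A replicate C at 0 h or C719A replicate B at 1 h, and that on PRE10 was lost in 7 of the 12 cases with 1 library left out. By 1 h the G906D response exceeded that of WT for PRE2 by 0.64 ± 0.17 (edgeR adjusted p = 0.00844), for RPT1 by 0.63 ± 0.12 (edgeR adjusted p = 0.000915) and for RPN2 by 0.55 ± 0.13 (edgeR adjusted p = 0.0051). With the groups compared alone, the calls on PRE2 (edgeR adjusted p = 0.0772) and RPN2 (edgeR adjusted p = 0.0709) in G906D were lost.

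By 2 h the C719A response exceeded that of WT for PRE2 by 0.56 ± 0.17 (edgeR adjusted p = 0.0125) and for RPN1 by 0.56 ± 0.15 (edgeR adjusted p = 0.00549). It was below that of WT for PUP1 (-0.43 ± 0.09, edgeR adjusted p = 0.000678), PRE1 (-0.55 ± 0.14, edgeR adjusted p = 0.00381) and RPN10 (-0.63 ± 0.10, edgeR adjusted p = 5.28e-05). By 2 h the G906D response exceeded that of WT for PRE2 by 0.89 ± 0.17 (edgeR adjusted p = 0.000538), for RPN2 by 0.63 ± 0.13 (edgeR adjusted p = 0.00143), for RPT2 by 0.60 ± 0.10 (edgeR adjusted p = 0.000182) and for PRE3 by 0.38 ± 0.12 (edgeR adjusted p = 0.0279). The PRE3 call was lost in 5 of the 12 cases with 1 library left out, and the PRE2 call in C719A by 2 h without WT replicate C at 0 h. All of these differences use the 3 WT libraries at 0 h, in which PRE2 had 384, 248 and 432 CPM.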

How the results depend on the processing

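Of 300 counts of called members under an alternative, 274 stayed within 1.5 times the value reported. Of 2404 values of named members, 2274 kept their side of the threshold, and their direction where they passed it. A change of direction that passed under neither setting was counted among the 2274. Scaling by library size alone changed the most. It gave 15 members in G906D against WT at 1 h, 24 in C719A against G906D at 0 h, 8 in the second hour of C719A, and 27 and 31 in the responses of G906D by 1 h and 2 h. Under it the members' median turned to -0.27 in G906D against WT at 0 h, 0.24 in C719A against G906D at 0 h, 0.041 in the first hour of C719A and 0.47 in that of G906D. PRE3 turned to -0.25 and PUP1 to -0.080 in G906D against WT at 0 h, PRE3 to 0.041 in the first hour of C719A, PRE3 to 0.47, PRE2 to 0.062, RPT6 to 0.018 and PUP2 to 0.14 in that of G906D, and PUP1 to 0.22 in that of WT. Among all genes called, the share that was higher became 23.4% in place of 48.2% in G906D against WT at 0 h, and 78.1% in place of 52.6% in the first hour of G906D. DESeq2 called 4 members in the second hour of G906D and 5 in the response of C719A by 1 h. With the groups compared alone, 0 were called in the second hour of WT, 1 and 5 in the responses of C719A by 1 h and 2 h, and 3 in that of G906D by 1 h.

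Over all 27 same-letter pairs within a strain, r ran from -0.59 to 0.36, with 12 over 0.1. The rule for pairing was met only between 0 h and 1 h in WT. Pairs of different letters within a strain reached r of 0.67, with 17 of 54 over 0.1, so meeting the rule does not show pairing. Between 0 h and 1 h in WT the replicate block within each strain gave 23 members in place of 24. The block moved 1 count by more than 1.5 times, the second hour of WT, to 0. With 1 library left out, the counts ran from 5 to 7 in C719A against WT at 1 h, 4 to 18 in the second hour of C719A, 0 to 11 in that of G906D, 0 to 1 in that of WT, and 1 to 8 in the response of C719A by 1 h. The causes of these shifts were not tested. With 3 libraries a group and standard errors of 0.06 to 0.12 for the members, small differences could not be detected.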
